A study of Mus musculus with 12 samples.

Results

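Kinesin motor genes were taken as every row of the deposited gene tables whose symbol reads Kif or Kifc followed by a number and at most 1 letter from a to c. There were 42 such genes among the 55421 in each table. Of these, 37 had a normalized count of 10 or more in 3 or more libraries out of 12 and were tested together with all 14721 genes that passed this filter. The cells were B16F10, a mouse melanoma line grown in culture. The groups were Bub1KO cells given 8 Gy of radiation, vector control (VC) cells given 8 Gy, untreated Bub1KO cells and untreated VC cells, with 3 libraries of total RNA in each. Bub1, a kinase of the spindle checkpoint, had been disrupted with CRISPR-Cas9, per the series' design text, to ask how its deficiency bears on the response to radiation. No source used here gives the number of Bub1KO lines or clones, or the time between irradiation and RNA extraction. Nothing in the labels says that replicates were grown as separate cultures, so the p-values reflect only how these libraries scatter, and that scatter may be technical.

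Kinesins are motor proteins that turn ATP hydrolysis into movement along microtubules. Mitotic kinesins build the spindle, move chromosomes and help to separate daughter cells, and many of their genes are transcribed mainly in the G2 and M phases of the cell cycle. Transport kinesins carry vesicles, organelles and ciliary cargo throughout the cell cycle. In pigment cells, microtubule motors also move melanosomes.

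Libraries held between 19380726 and 33087366 reads in genes, and a normalized count is a read count divided by the size factor of its library, which ranged from 0.775 to 1.41. Bub1 RNA was at 886, 989 and 1119.8 normalized counts in irradiated Bub1KO libraries, against 1484, 1461 and 1507 in irradiated VC libraries. Untreated Bub1KO libraries had 1834, 1565 and 1588, against 2752, 3185 and 2859 in untreated VC libraries, so every Bub1KO library was below every VC library of the same treatment. Untreated Bub1KO replicate 1 stood apart: the median deviation of its genes in the top quartile of GC content minus that in the bottom quartile was -0.70 on the log2 scale, while this gap was 0.0298 and 0.0731 in the other libraries of its group. The gap was 0.0762 to 0.336 in the irradiated libraries and -0.359 to -0.128 in untreated VC. All 7 melanocyte markers passed the filter and summed to 555547 to 578932 normalized counts in irradiated Bub1KO, 430616 to 445913 in irradiated VC, 542890 to 552089 in untreated Bub1KO, and 386911 to 404327 in untreated VC. Of 8 leukocyte and macrophage markers 3 passed, and their list summed to 317 to 328 in irradiated Bub1KO and 200.6 to 231 in irradiated VC, against 33.7 to 34.8 in untreated Bub1KO and 36.1 to 38.1 in untreated VC, with Cd3e and Adgre1 at 0 in every library and Ptprc at 0 in every Bub1KO library. Of 8 fibroblast and endothelial markers 3 passed (sums 233 to 269 in irradiated Bub1KO, 335 to 346 in irradiated VC, 178 to 203 in untreated Bub1KO and 184 to 241 in untreated VC), and of 8 keratinocyte and epithelial markers 1 passed (sums 122 to 133 in irradiated Bub1KO, 77.2 to 102 in irradiated VC, 74.8 to 96.6 in untreated Bub1KO and 57.2 to 78.7 in untreated VC). The part of these markers in the results was not tested.

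Compared per kilobase of exon, Kif5b, the widely expressed heavy chain of kinesin-1 and a motor of melanosomes in melanocytes, had the highest level of the family in every group. It stood at 1286 normalized counts per kilobase after 8 Gy and 1600.4 untreated in Bub1KO, and at 1555 after 8 Gy and 1908 untreated in VC. Kif20a, a motor of the spindle midzone, and Kif3a, a subunit of the kinesin-2 motor of cilia, held the next places. In irradiated Bub1KO, Kif3a was at 1171 per kilobase and Kif20a at 645, whereas in untreated VC Kif20a was at 1110.2 and Kif3a at 795. In irradiated VC these levels were 805 for Kif3a and 789 for Kif20a, and in untreated Bub1KO 939 for Kif3a and 1043 for Kif20a, in both cases apart by less than 1 SD of Kif3a between libraries. At the other end of the family, 5 genes did not pass the filter. Kif2b, a microtubule depolymerase, had no read in any library. Kif12 had 1 read in all 12 libraries together, Kif1a, a neuronal vesicle motor, had 5, Kif17, a kinesin-2 of dendrites and cilia, had 43 and Kif28 had 70.

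The effect of irradiation was read within each genotype, with the spread taken from all 12 libraries. After 8 Gy, 13 of the 16 tested mitotic kinesins were lower in each genotype, and 9 of them stood at 39.3% to 49.5% of their untreated level in Bub1KO and 40.0% to 52.8% in VC. Of the 37 tested kinesins, 15 fell and 13 rose in Bub1KO, and 14 fell and 12 rose in VC (limma, Benjamini-Hochberg adjusted p under 0.05). The background was 49.4% of all tested genes called in Bub1KO (23.9% lower, 25.4% higher) and 53.4% in VC (25.8% lower, 27.6% higher). The falls lay almost wholly in the mitotic groups: of 16 tested members of the spindle, chromosome arm, microtubule-end and midzone groups, 13 fell in each genotype, with a median log2 difference of -1.02 in Bub1KO and -0.93 in VC. Over all tested genes the median was 0.03 in Bub1KO and 0.02 in VC. Of the other 21 kinesins, 2 fell in Bub1KO and 1 in VC, and the medians were 0.34 and 0.33. Kif5a, Kif5c, Kif19a and Kifc2 reached 10 normalized counts in at most 1 untreated library each, so they passed the filter through the irradiated libraries and had to be higher there. Without these 4, the risers were 9 of 33 in Bub1KO and 8 of 33 in VC, and the medians of the other 18 kinesins outside the mitotic groups were 0.25 and 0.26. Leaving them aside, 14 genes fell in both genotypes and 6 rose in both. The share of all tested genes called the same way in both was not counted, so the 14 and the 6 have no background. The group means of the 2 genotypes share no library, but the spread behind both sets of calls was taken from all 12. Among all 37, irradiated and untreated libraries did not overlap in 15 kinesins that were lower and 12 that were higher in Bub1KO, and in 15 and 16 in VC. The higher counts include Kif5a, Kif5c and Kifc2 in both genotypes and Kif19a in Bub1KO. The filter set the direction of these genes, so the higher counts are in part fixed by it. Over all tested genes the libraries were apart in 25.8% lower and 29.1% higher in Bub1KO, and in 31.8% and 33.6% in VC. In bulk RNA, fewer cells in a cell cycle phase and less RNA per cell cannot be told apart. Without untreated Bub1KO replicate 1, 15 of the 16 mitotic members fell in Bub1KO and 13 in VC. Of all 14721 tested genes, 3825 fell in Bub1KO and 4311 in VC without that library, against 3523 and 3796 with it.

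**Figure D1:**
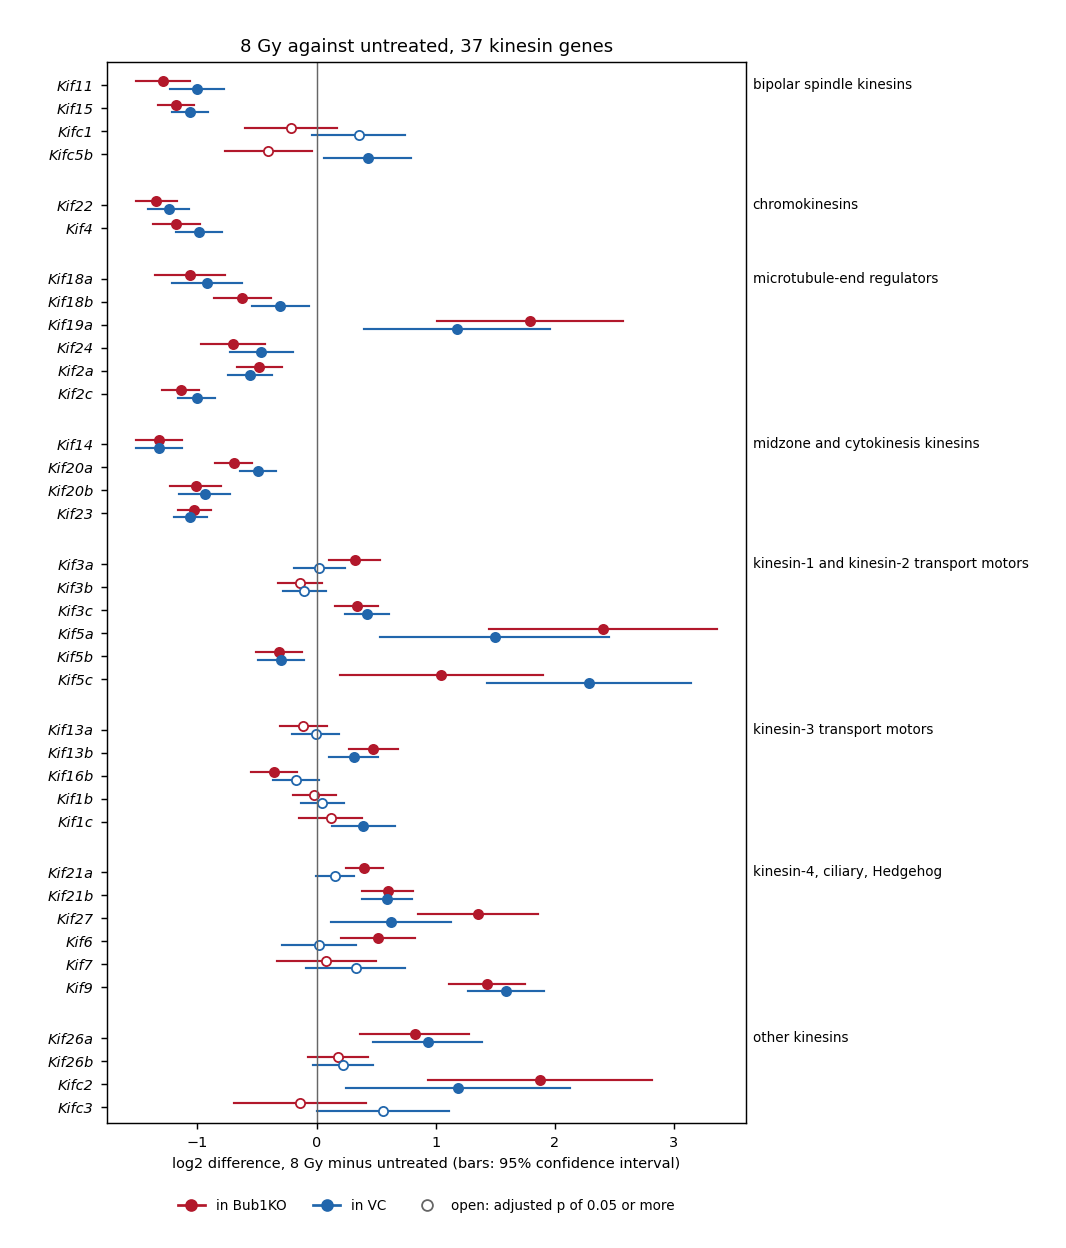
Log2 difference of 8 Gy minus untreated (x axis) for the 37 tested kinesins (rows, by role), in Bub1KO (red) and in VC (blue), with 95% confidence intervals and open points where the adjusted p was 0.05 or more. The mitotic points lie to the left of 0 apart from Kif19a in both genotypes and Kifc1 and Kifc5b in VC. Kif22 lies at -1.35 in Bub1KO and -1.24 in VC.

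Promoters of mitotic genes often carry a cell cycle genes homology region (CHR), a short element bound by the DREAM and MuvB complexes, commonly with CCAAT boxes upstream. The CHR hexamer TTTGAA or TTCGAA, on either strand, was searched in RefSeq promoters (GRCm38.p6, 250 bases before to 50 after the start), which were found for 33 of the 42 kinesins and 29 of the tested ones. It stood in 12 of 14 promoters of the mitotic groups (85.7%), in 2 of 15 of the other kinesins (13.3%, Kif26b and Kif27) and in 19.4% of 27025 promoters of all genes. Within 100 bases before to 50 after the start it was found in 10 of the 14 mitotic promoters (71.4%), 2 of the 15 others (13.3%) and 8.68% of all. A CCAAT box (CCAAT on either strand, in the whole window) stood in 64.3%, 40.0% and 37.9% of the same sets. A match describes letters in the window and not a bound site. The stretches below are shown because they let 7 kinesins that fell in both genotypes be set beside Kifc1 and Kifc5b, which did not fall in VC, all with TTTGAA or its reverse complement within 40 bases of the start. They read 5′ to 3′ on the strand of the gene, with the hexamer or its reverse complement TTCAAA in capitals. The stretches are chr19:37376351-37376380 (Kif11, plus strand), chr9:122951050-122951079 (Kif15, plus), chr7:127042420-127042449 (Kif22, minus), chrX:100626072-100626101 (Kif4, plus), chr11:102925104-102925133 (Kif18b, minus), chr9:61946780-61946809 (Kif23, minus), chr19:34922353-34922382 (Kif20b, plus), chr17:33890615-33890644 (Kifc1, minus) and chr17:26917108-26917137 (Kifc5b, plus).
Kif11: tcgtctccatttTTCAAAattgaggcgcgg
Kif15: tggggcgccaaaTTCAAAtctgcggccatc
Kif22: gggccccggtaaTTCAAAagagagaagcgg
Kif4: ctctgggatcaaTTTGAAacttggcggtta
Kif18b: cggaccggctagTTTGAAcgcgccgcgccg
Kif23: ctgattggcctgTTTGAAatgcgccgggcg
Kif20b: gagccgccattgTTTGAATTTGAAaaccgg
Kifc1: cggaggttgaaaTTCAAAagtggcgggtgt
Kifc5b: cggaggttgaaaTTCAAAagtgactggtgt
Kif20b holds the hexamer in tandem, and the Kifc1 and Kifc5b stretches are the same at 28 of 30 bases. The first base of the hexamer lies at -19 in Kif11 and Kif15, -17 in Kif22, 2 in Kifc1, 3 in Kif23, 4 in Kif18b, 8 in Kif20b, 20 in Kif4 and 30 in Kifc5b, counted from the start as 1. Of the 12 mitotic kinesins that fell in both genotypes and had a promoter in the table, Kif18a and Kif2a held no hexamer in the window, Kif14 and Kif2c held it only at -228 and -103, and Kif24 held TTCGAA at -26.

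**Figure D2:**
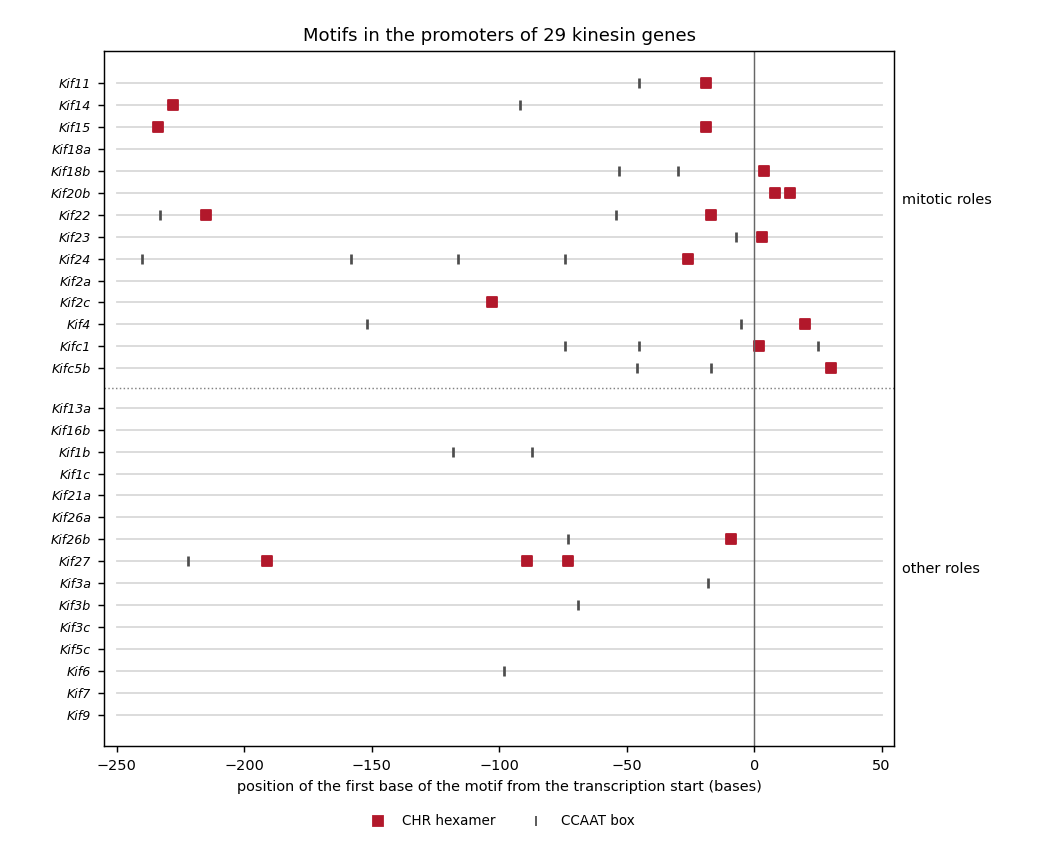
Position of the CHR hexamer (red squares) and of CCAAT boxes (grey ticks) from 250 bases before to 50 after the transcription start (x axis, bases), for 29 tested kinesins (rows), 1 promoter each. In 10 of the 14 mitotic rows red squares lie at -26 to 30, and they appear in 2 of the 15 other rows.

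Kif11 (GRCm38 chromosome 19, 37376403 to 37421859) encodes the motor that slides spindle microtubules apart so that the spindle becomes bipolar. It had 1381, 1480.4 and 1847 normalized counts in irradiated Bub1KO, against 4075, 3753 and 3621 in untreated Bub1KO. VC libraries had 1885, 2027 and 1867 after 8 Gy, against 3765, 4347 and 3541 untreated. All 6 irradiated libraries lay below all 6 untreated ones, and the log2 difference was -1.29 in Bub1KO (SE 0.105, limma adjusted p = 4.29e-07) and -1.01 in VC (SE 0.105, limma adjusted p = 3.79e-06). Kif15, which can take over from Kif11 in holding the poles apart, had 1184, 1205 and 1284 in irradiated Bub1KO, against 2993, 2785 and 2566 in untreated Bub1KO. It had 1372, 1347 and 1325 in irradiated VC, against 2705, 2892 and 2858 in untreated VC. Its irradiated libraries were again all below the untreated ones, with log2 differences of -1.18 in Bub1KO (limma adjusted p = 3.18e-08) and -1.06 in VC (limma adjusted p = 7.99e-08).

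The chromokinesins bind chromosome arms and push them towards the spindle equator. Kif22 (chromosome 7, 127027729 to 127042471) averaged 1059 ± 63.3 normalized counts in irradiated Bub1KO and 2689.8 ± 48.8 in untreated Bub1KO (SD, n = 3 each), a log2 difference of -1.35 (SE 0.0803, limma adjusted p = 2.94e-08), the lowest of the family in that genotype. In VC it averaged 1131 ± 55.5 after 8 Gy and 2683 ± 267 untreated (log2 difference -1.24, limma adjusted p = 5.86e-08). Kif4 (chromosome X, 100625737 to 100727214), which also shortens the overlap of midzone microtubules, had 1051, 1176 and 1222 in irradiated Bub1KO, against 2977, 2422 and 2427 in untreated Bub1KO. The VC libraries held 1371, 1318 and 1321 after 8 Gy, against 2464, 2719 and 2788 untreated. Both chromokinesins were at 39.3% to 50.4% of the untreated level, and irradiated and untreated libraries did not overlap. Pdzd11 overlaps 15.1% of the exon bases of Kif4 on the opposite strand, and no source used here gives the strand setting of the counting.

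The kinesin-8 and kinesin-13 motors regulate microtubule ends, and 5 of 6 tested members fell in each genotype. Kif2c, the depolymerase that corrects faulty kinetochore attachments, had 1036, 1075 and 1105 in irradiated Bub1KO, against 2469, 2336 and 2297 in untreated Bub1KO. It had 1297, 1227 and 1198 in irradiated VC, against 2308, 2505 and 2671 in untreated VC. These libraries did not overlap, and the log2 differences were -1.14 in Bub1KO (limma adjusted p = 4.62e-08) and -1.01 in VC (limma adjusted p = 1.41e-07). Kif18a, which damps the oscillation of chromosomes at the equator, had 256, 229.5 and 286 in irradiated Bub1KO, against 586, 546 and 481 in untreated Bub1KO. Among VC libraries it had 310.0, 351 and 328 after 8 Gy, against 627, 764 and 509 untreated. It fell by 1.06 on the log2 scale in Bub1KO (limma adjusted p = 2.47e-05) and by 0.92 in VC (limma adjusted p = 8.27e-05), with no overlap of libraries. Kif2a, a depolymerase at spindle poles, and Kif24, which acts at centrioles, fell less: -0.48 and -0.70 in Bub1KO and -0.56 and -0.46 in VC. Kif18b (chromosome 11, 102905529 to 102925124), a kinesin-8 of astral microtubules, had 946, 998 and 1023 in irradiated Bub1KO, against 1233, 1731 and 1654 in untreated Bub1KO. In VC it had 1357, 1413 and 1273 after 8 Gy, against 1779.5, 1660.1 and 1554 untreated. Its fall of 0.62 in Bub1KO (limma adjusted p = 0.000363) held when any library was left out, while its fall of 0.30 in VC (limma adjusted p = 0.032) did not pass without untreated VC replicate 1 or 2 or irradiated VC replicate 1 or 3 (limma adjusted p = 0.068 to 0.115).

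Kif19a, a kinesin-8 known to limit the length of cilia, was the member of this group that rose, at 26.8, 22.2 and 23.1 normalized counts in irradiated Bub1KO, against 6.10, 7.40 and 5.27 in untreated Bub1KO. VC libraries had 22.8, 16.3 and 25.7 after 8 Gy, against 5.80, 18.1 and 6.30 untreated, where untreated replicate 2 overlapped the irradiated libraries. The rise was 1.79 in Bub1KO (limma adjusted p = 0.00104) and 1.18 in VC (limma adjusted p = 0.0141), and in VC it did not pass without untreated replicate 1 or 3 or irradiated replicate 3 (limma adjusted p = 0.0544 to 0.0657) or with GC trends removed (limma adjusted p = 0.235). Kif19a passed the filter through its irradiated libraries, so its direction was set by the filter and these p-values do not test it.

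All 4 tested kinesins of the midzone and of cytokinesis fell in both genotypes. Kif23, which with Racgap1 forms the centralspindlin complex, had 1524, 1455 and 1484 in irradiated Bub1KO, against 3243, 2956 and 2909.6 in untreated Bub1KO. It had 1657, 1637 and 1673 in irradiated VC, against 3337, 3463 and 3559.6 in untreated VC, and its log2 difference was -1.03 in Bub1KO (limma adjusted p = 4.3e-08) and -1.06 in VC (limma adjusted p = 3.32e-08). Its libraries were tightly grouped, with an SD of 34.6 in irradiated Bub1KO and 17.9 in irradiated VC. Kif14, which recruits citron kinase to the midbody, fell by 1.32 in each genotype, to 641 ± 67.9 in irradiated Bub1KO, against 1601 ± 140.0 in untreated Bub1KO, and to 708 ± 43.8 in irradiated VC, against 1771 ± 45.8 in untreated VC (SD, n = 3 each). Kif20b, a motor of late cytokinesis, had log2 differences of -1.02 in Bub1KO and -0.94 in VC. Kif20a, which moves the chromosomal passenger complex to the midzone, had 2566, 2759 and 3071 in irradiated Bub1KO, against 4746, 4401 and 4429 in untreated Bub1KO. It had 3392, 3433 and 3448 in irradiated VC, against 4642, 4978 and 4828 in untreated VC. Its fall was the smallest of the group, at 0.70 in Bub1KO (limma adjusted p = 3.45e-06) and 0.49 in VC (limma adjusted p = 7.14e-05), again with no overlap between irradiated and untreated libraries. Cdc23 overlaps 29.3% of the exon bases of Kif20a on the opposite strand.

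Kifc1 (chromosome 17, 33875659 to 33890661), the minus-end motor that focuses spindle poles and clusters extra centrosomes, and its near copy Kifc5b (chromosome 17, 26917091 to 26932583) departed from this pattern. Kifc1 had 1129, 1151 and 1038 normalized counts in irradiated Bub1KO, against 846, 1622 and 1534 in untreated Bub1KO. The VC libraries held 1467, 1560.3 and 1458 after 8 Gy, against 1302, 1091 and 1124 untreated. In VC the irradiated libraries lay above the untreated ones, whereas in Bub1KO they lay between untreated replicate 1 and the other untreated libraries. The log2 difference of Kifc1 was -0.21 in Bub1KO (limma adjusted p = 0.348) and 0.35 in VC (limma adjusted p = 0.115). Kifc5b had 312, 274 and 338 in irradiated Bub1KO, against 294, 519 and 442 in untreated Bub1KO, and 444, 482 and 438 in irradiated VC, against 388, 317 and 310.0 in untreated VC. It differed by -0.41 in Bub1KO (limma adjusted p = 0.0614) and rose by 0.43 in VC (limma adjusted p = 0.0459), a call lost when any irradiated library or untreated VC replicate 2 or 3 was left out (limma adjusted p = 0.051 to 0.137), and in 13 of 21 alternatives in all, among them no filter, TMM factors, the replicate block and edgeR (adjusted p = 0.0612 to 0.0651). Without untreated Bub1KO replicate 1, Kifc1 fell by 0.51 in Bub1KO (limma adjusted p = 7.7e-05) and rose by 0.35 in VC (limma adjusted p = 0.000571), and Kifc5b fell by 0.64 in Bub1KO (limma adjusted p = 0.000328). With GC trends removed, the log2 difference of Kifc1 was -0.48 in Bub1KO and close to 0 in VC (limma adjusted p = 0.986), and that of Kifc5b was -0.64 in Bub1KO and 0.16 in VC (limma adjusted p = 0.228). Both Bub1KO values passed. The longest coding transcripts of Kifc1 and Kifc5b are identical at 97.4% of 2337 aligned bases, so reads may be split between them and their values are uncertain one by one. The longest transcripts of Kifc1 and Kifc5b have a GC content of 57.0% and 55.8%.

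**Figure D3:**
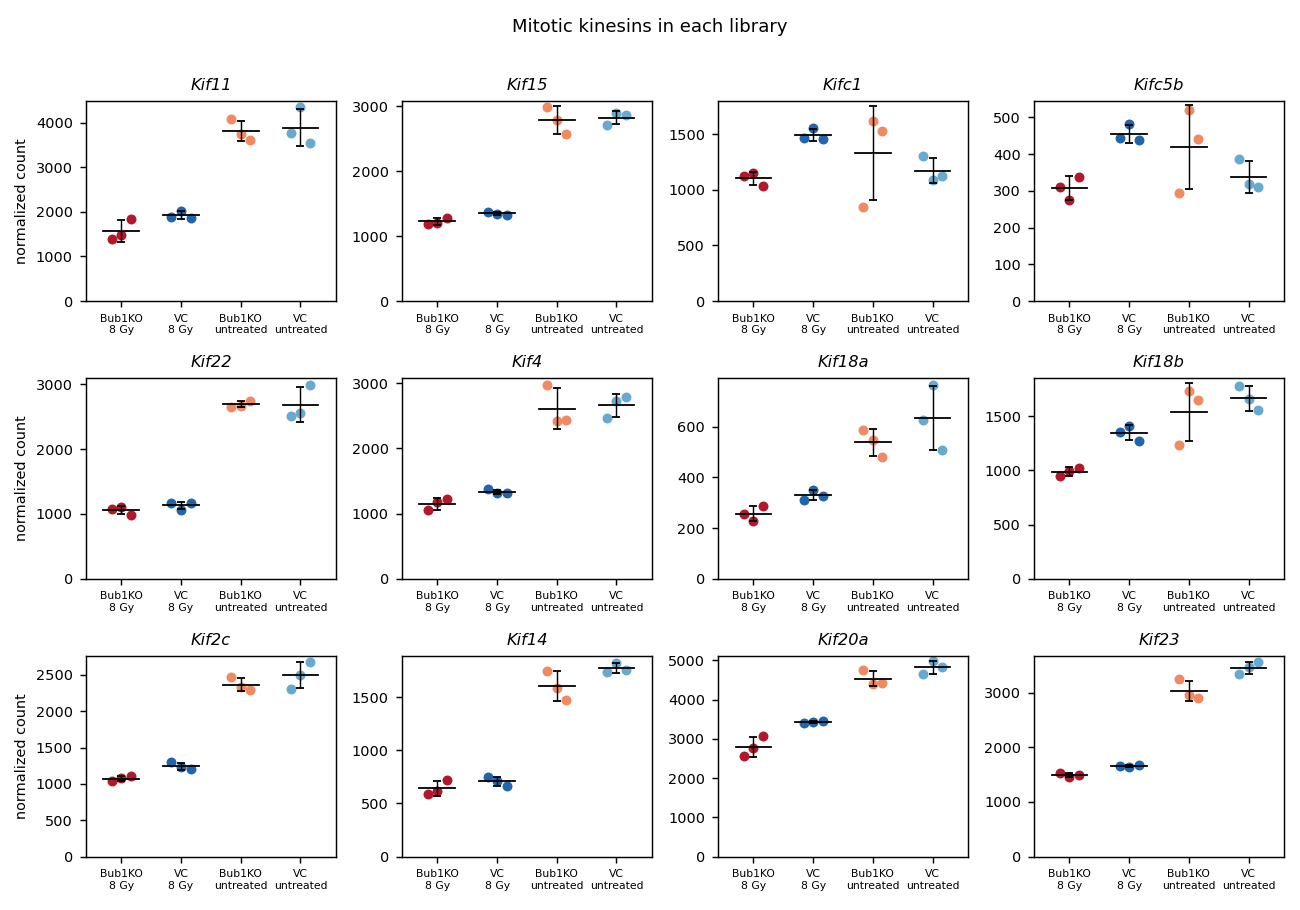
Normalized count (y axis, from 0) of 12 mitotic kinesins in each of the 12 libraries, with 3 points per group in replicate order, a black line at the mean and bars of 1 SD. Irradiated groups lie below the untreated ones for Kif11, Kif15, Kif22, Kif4, Kif18a, Kif2c, Kif14, Kif20a and Kif23, while for Kifc1 irradiated VC averages 1495 and untreated VC 1172.

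Among the kinesin-1 and kinesin-2 transport motors, Kif5b fell and Kif3c rose in both genotypes. Kif5b (chromosome 18, 6201002 to 6242174) had 11245, 9494 and 10059 in irradiated Bub1KO, against 13955, 12169.9 and 12193 in untreated Bub1KO. Among VC libraries it had 11763, 11725 and 13744 after 8 Gy, against 14665, 16164 and 14852 untreated. Irradiated libraries were below untreated ones within each genotype, with log2 differences of -0.32 in Bub1KO (limma adjusted p = 0.00918) and -0.30 in VC (limma adjusted p = 0.0118). The call was lost in Bub1KO without irradiated replicate 2 (limma adjusted p = 0.0507), in VC without irradiated replicate 1 or 2 or untreated replicate 2 (limma adjusted p = 0.0526 to 0.0536), and in both with GC trends removed (limma adjusted p = 0.16 and 0.202). Its neuronal relatives Kif5a and Kif5c were higher after 8 Gy in both genotypes and rare in all libraries. Both passed the filter through the irradiated libraries, so their direction was set by the filter and their p-values do not test it. Kif5a averaged 12.4 ± 3.24 in irradiated Bub1KO and 1.67 ± 1.30 in untreated Bub1KO, whereas VC averaged 12.5 ± 2.17 after 8 Gy and 4.19 ± 2.83 untreated (SD, n = 3 each). Kif5c averaged 20.98 ± 1.54 in irradiated Bub1KO and 9.71 ± 1.70 in untreated Bub1KO, whereas VC averaged 15.2 ± 3.35 after 8 Gy and 2.78 ± 2.61 untreated. Their libraries held 1 to 19 reads of Kif5a and 1 to 26 of Kif5c, so counting error alone is large. The rise of Kif5c in Bub1KO (1.05, limma adjusted p = 0.0418) was lost without any single library of Bub1KO and without irradiated VC replicate 1 or 2 (limma adjusted p = 0.0511 to 0.0965).

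In the kinesin-2 motor, Kif3a and Kif3b form the heterodimer that drives intraflagellar transport, and Kif3c is an alternative partner of Kif3a. Kif3c rose in both genotypes, by 0.34 in Bub1KO (limma adjusted p = 0.00465) and 0.42 in VC (limma adjusted p = 0.000861), although 35.3% of its exon bases are also covered by 1110002L01Rik on the opposite strand. Kif3b did not pass in either genotype (-0.14 and -0.10). Kif3a (chromosome 11, 53567379 to 53601967) had 4548, 4263 and 3784 in irradiated Bub1KO, against 3805, 2994 and 3299 in untreated Bub1KO. In VC it had 2918, 2817 and 2922 after 8 Gy, against 2685, 2659.8 and 3205 untreated. Groups overlapped in both genotypes. The difference in Bub1KO was 0.32 (limma adjusted p = 0.016), lost without untreated replicate 2 or irradiated replicate 1 or 2 (limma adjusted p = 0.051 to 0.0759), and 0.02 in VC (limma adjusted p = 0.859).

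Of the 5 tested kinesin-3 motors, which carry vesicles and endosomes, Kif13b rose in both genotypes (0.48 in Bub1KO and 0.31 in VC, where the call was lost without irradiated VC replicate 2, limma adjusted p = 0.0819, and with GC trends removed, limma adjusted p = 0.0825), and Kif16b, a motor of early endosomes, fell in Bub1KO (-0.35, limma adjusted p = 0.00475) with -0.17 in VC (limma adjusted p = 0.12). Kif1b, a mitochondrial and vesicle motor, and Kif13a, which delivers cargo to maturing melanosomes in human melanocytes, did not pass in either genotype, with differences from -0.11 to 0.05. Kif1c (chromosome 11, 70700548 to 70731964), a motor of vesicles and podosomes, had 3371, 3380.5 and 3409.7 in irradiated Bub1KO, against 2456, 3628 and 3401 in untreated Bub1KO. It had 3907, 4493 and 3748 in irradiated VC, against 3384, 2953 and 2903 in untreated VC. Only the VC groups were apart, with a difference of 0.39 (limma adjusted p = 0.0151) that did not pass without irradiated VC replicate 2 or untreated VC replicate 2 or 3 (limma adjusted p = 0.0506 to 0.0727), and the Bub1KO difference was 0.12 (limma adjusted p = 0.443).

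Of 6 tested kinesins of the kinesin-4 family, of motile cilia and of Hedgehog signalling, 5 rose in Bub1KO (83.3%, against 25.4% of all tested genes). In VC 3 of the 6 rose (50%, against 27.6%), and 0 fell in either genotype. Kif9 (chromosome 9, 110476958 to 110525179), a kinesin of sperm flagella and motile cilia, had 115, 131 and 129 in irradiated Bub1KO, against 46.8, 48.5 and 42.1 in untreated Bub1KO. VC libraries had 73.2, 76.2 and 86.9 after 8 Gy, against 28.2, 23.2 and 25.2 untreated. Every irradiated library was above every untreated one, and the mean was 273% of the untreated mean in Bub1KO (log2 difference 1.43, limma adjusted p = 3.45e-06) and 309% in VC (log2 difference 1.59, limma adjusted p = 1.34e-06). Kif21b (chromosome 1, 136131389 to 136177998), which pauses microtubule growth, had 4902, 5065 and 5402 in irradiated Bub1KO, against 2892, 3705 and 3614 in untreated Bub1KO. It had 3959, 4161 and 3535 in irradiated VC, against 2728, 2642 and 2360.0 in untreated VC. These groups did not overlap within a genotype, and the rise was 0.60 in Bub1KO (limma adjusted p = 0.000212) and 0.59 in VC (limma adjusted p = 0.000214). Kif27, related to the Hedgehog kinesin Kif7, rose by 1.36 in Bub1KO and by 0.63 in VC, and its VC call (limma adjusted p = 0.0364) was lost without untreated VC replicate 1 or 3 or irradiated VC replicate 2 or 3 (limma adjusted p = 0.0544 to 0.151), and with no filter, DESeq2 or only the 6 compared libraries (adjusted p = 0.057 to 0.129). Kif7 itself did not pass (0.08 in Bub1KO and 0.33 in VC), and Kif21a rose in Bub1KO (0.40, limma adjusted p = 0.000491) with 0.16 in VC (limma adjusted p = 0.0897).

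Kif6 (chromosome 17, 49615136 to 49909847), a kinesin-9 like Kif9, had 119.7, 121 and 122 in irradiated Bub1KO, against 96.6, 88.0 and 70.6 in untreated Bub1KO. The VC libraries held 69.0, 74.4 and 59.0 after 8 Gy, against 64.7, 68.4 and 65.5 untreated. The Bub1KO groups were apart and the VC groups overlapped, with differences of 0.52 (limma adjusted p = 0.00915) and 0.02 (limma adjusted p = 0.91). Of the other kinesins, Kif26a, a signalling kinesin of enteric neurons, rose by 0.82 in Bub1KO (limma adjusted p = 0.00546) and by 0.93 in VC (limma adjusted p = 0.00226), calls that were lost with GC trends removed (limma adjusted p = 0.0686 and 0.245). Kifc2, a minus-end motor described in neurons, averaged 30.5 ± 7.79 in irradiated Bub1KO and 8.67 ± 5.86 in untreated Bub1KO, whereas VC averaged 17.8 ± 5.31 after 8 Gy and 7.18 ± 2.01 untreated (SD, n = 3 each). Its rise was called in both genotypes, and in VC (limma adjusted p = 0.0337) it was lost without untreated VC replicate 1 or 3 or irradiated VC replicate 1 or 2, with no filter and with GC trends removed (limma adjusted p = 0.0617 to 0.117). Kifc2 also passed the filter through the irradiated libraries, so the direction of these calls was set by the filter. Of the 14 genes that fell in both genotypes, 12 kept that call in all 21 alternatives in each genotype, as did Kif21b, Kif3c and Kif9 among the 6 that rose in both and were not fixed in direction by the filter. How many of all tested genes kept a call in this way was not counted.

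Proteins that work with these motors gave the following counts. Of 18 spindle and cytokinesis partners, 16 fell after 8 Gy in Bub1KO (88.9%, against 23.9% of all tested genes) and 16 in VC (88.9%, against 25.8%), with medians of -0.97 and -0.82. Racgap1, the partner of Kif23, fell by 1.16 in Bub1KO (limma adjusted p = 1.42e-08) and by 1.04 in VC (limma adjusted p = 3.87e-08). Aurkb, the kinase of the chromosomal passenger complex, fell by 1.12 in Bub1KO and 0.85 in VC. Spag5, a kinetochore and spindle protein, fell by 1.07 in Bub1KO and 1.05 in VC. Of 13 cargo adaptors and light chains, 3 rose and 2 fell in each genotype, and the 38.5% called was below the 49.4% of all tested genes in Bub1KO and 53.4% in VC. The kinesin light chain Klc4 rose by 0.80 in Bub1KO and 1.21 in VC, the scaffold Mapk8ip1 rose by 0.35 in Bub1KO and 0.64 in VC, and the mitochondrial anchor Rhot1 fell by 0.34 in Bub1KO and 0.29 in VC. Of 17 tubulin and dynein genes, 3 rose and 3 fell in Bub1KO (35.3% called) and 6 rose and 4 fell in VC (58.8% called). The tubulins Tubb5 (-0.70 in Bub1KO and -0.74 in VC) and Tuba1b (-0.72 in Bub1KO and -1.04 in VC) fell in both genotypes, and Tuba1c fell in VC (-0.41) with -0.09 in Bub1KO (limma adjusted p = 0.388).

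After 8 Gy, Kif6, Kif9, Kif3a and Kif21b were higher in Bub1KO than in VC, while 8 of the 16 mitotic kinesins and Kif5b, Kif1c, Kif26b and Kifc3 were lower. Among these, Kif6 was furthest above VC and Kifc3 furthest below it. Of 37 kinesins, 16 differed (4 higher and 12 lower in Bub1KO), against a background of 30.7% of all tested genes called (14.3% higher, 16.4% lower), so the share of kinesins that were higher (10.8%) was below that of all genes and the share that were lower (32.4%) above it. The median log2 difference was -0.21 over the 16 mitotic members, of which 8 were lower and 0 higher in Bub1KO. It was 0.02 over the other 21, of which 4 were lower and 4 higher, and -0.01 over all tested genes. The count of 16 depended on the model: 9 kinesins were called with edgeR, 9 with DESeq2, 9 with no filter on low values and 8 when all 12 libraries gave the spread. The share of all genes called in these fits was 16.6% with edgeR, 17.3% with DESeq2, 6.81% with no filter and 14.3% with all 12 libraries. All 4 calls of higher in Bub1KO were kept in each of these. The libraries of Bub1KO and VC did not overlap in 6 kinesins that were higher and 16 that were lower in Bub1KO, against 22.1% and 22.6% of all tested genes. The authors' deposited table, which gives VC over Bub1KO for the same libraries, holds 9 kinesins at an adjusted p under 0.05 in this comparison. The share of all genes called there was not counted, so the 9 cannot be set against a background.

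The 4 kinesins that were higher in irradiated Bub1KO kept their calls in all 15 alternatives, and in each the Bub1KO and VC libraries given above did not overlap. Kif6 averaged 121 ± 1.13 in irradiated Bub1KO and 67.5 ± 7.83 in irradiated VC (SD, n = 3 each), a log2 difference of 0.84 (SE 0.139, limma adjusted p = 0.000656). Kif9 averaged 125 ± 9.19 in irradiated Bub1KO and 78.8 ± 7.17 in irradiated VC (log2 difference 0.66, SE 0.134, limma adjusted p = 0.00264). Kif3a averaged 4198 ± 387 in irradiated Bub1KO and 2885 ± 59.7 in irradiated VC (log2 difference 0.54, SE 0.0673, limma adjusted p = 9.02e-05). Its lowest Bub1KO library, at 3784, lay above its highest VC library, at 2922. Its heterodimer partner Kif3b was at 1799.7 ± 69.8 in irradiated Bub1KO and 1778 ± 77.3 in irradiated VC, a difference of 0.02 with a 95% interval of -0.11 to 0.15 (limma adjusted p = 0.858). Kif21b averaged 5123 ± 255 in irradiated Bub1KO and 3885 ± 319 in irradiated VC (log2 difference 0.40, SE 0.0671, limma adjusted p = 0.000697), and its family member Kif21a differed by 0.10 (limma adjusted p = 0.258).

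**Figure D4:**
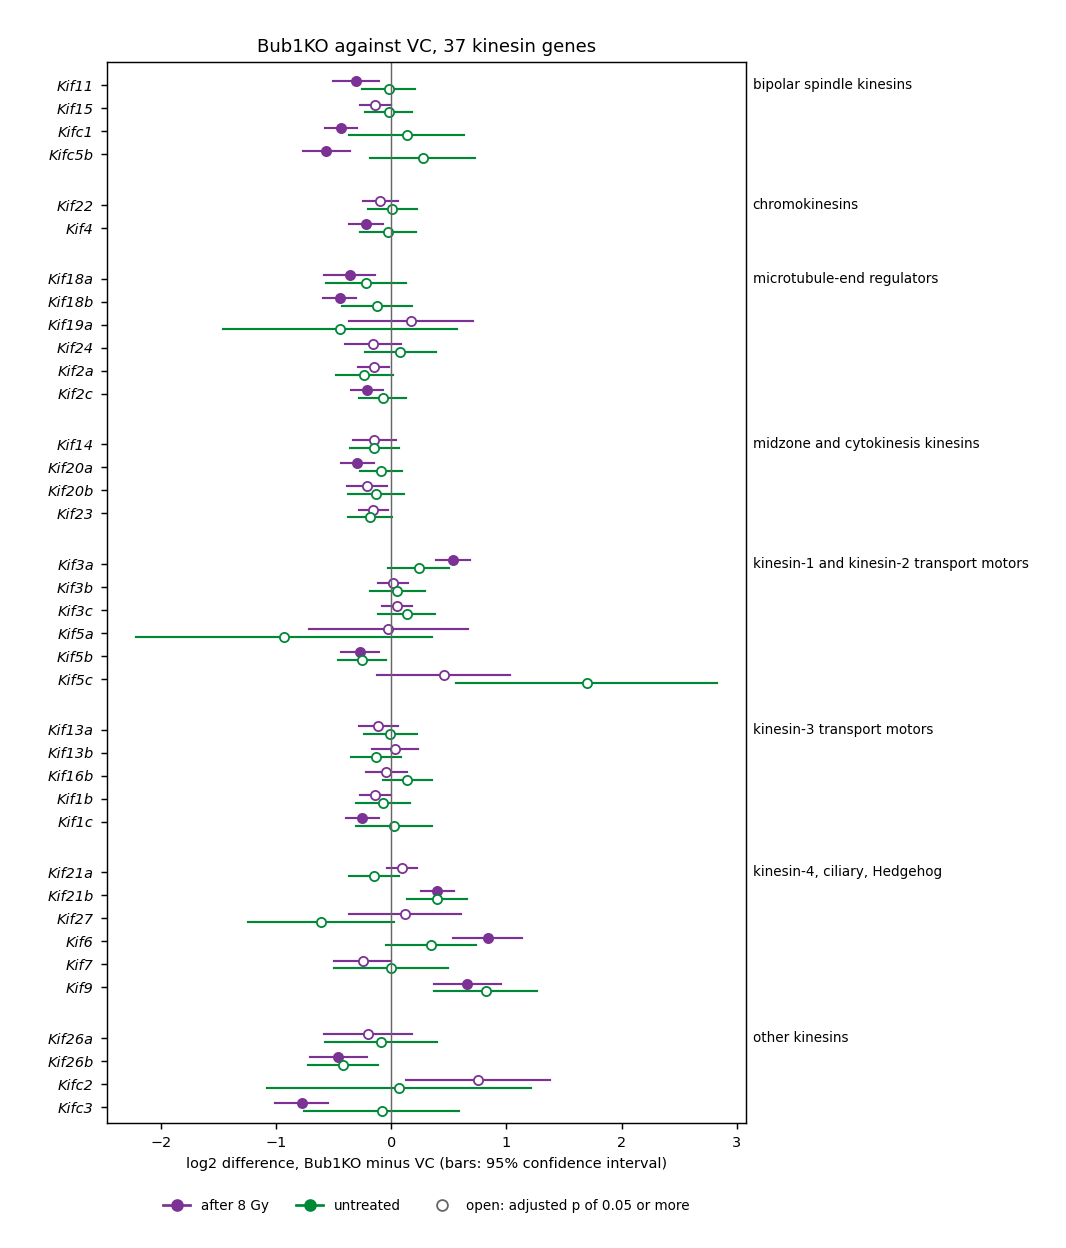
Log2 difference of Bub1KO minus VC (x axis) for the 37 tested kinesins (rows, by role), after 8 Gy (purple) and untreated (green), with 95% confidence intervals and open points where the adjusted p was 0.05 or more. After 8 Gy, Kif3a, Kif21b, Kif6 and Kif9 lie to the right of 0 with filled points, 12 filled points lie to the left, and no untreated point is filled.

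Among the mitotic kinesins that were lower in irradiated Bub1KO, Kif18b and Kifc5b kept their calls in all 15 alternatives. Kif18b averaged 989 ± 39.2 in irradiated Bub1KO and 1348 ± 70.5 in irradiated VC (log2 difference -0.45, SE 0.0665, limma adjusted p = 0.000327). Kifc5b averaged 308 ± 32.3 in irradiated Bub1KO and 454 ± 24.1 in irradiated VC (log2 difference -0.56, SE 0.0952, limma adjusted p = 0.000743), and Kifc1 averaged 1106 ± 59.9 in irradiated Bub1KO and 1495 ± 56.8 in irradiated VC (log2 difference -0.44, SE 0.0655, limma adjusted p = 0.000346). Every irradiated Bub1KO library of these 3 genes was below every irradiated VC library. The Kifc1 call was lost with edgeR, DESeq2 or a spread from all 12 libraries (adjusted p = 0.0747 to 0.129). Kif20a averaged 2799 ± 255 in irradiated Bub1KO and 3424 ± 29.3 in irradiated VC (log2 difference -0.29, limma adjusted p = 0.00482), and its call was lost with no filter on low values (limma adjusted p = 0.0816). For Kif11 (log2 difference -0.31, limma adjusted p = 0.022), Kif18a (-0.36, limma adjusted p = 0.0172), Kif4 (-0.22, limma adjusted p = 0.0283) and Kif2c (-0.21, limma adjusted p = 0.0239) the libraries given above did not overlap between genotypes, but each call was lost with edgeR, DESeq2, no filter and all 12 libraries. Leaving out 1 library also ended them: Bub1KO replicate 1 or 2 or VC replicate 2 for Kif11 (limma adjusted p = 0.0627 to 0.0969), Bub1KO replicate 2 or VC replicate 2 for Kif18a (0.084 and 0.0603), Bub1KO replicate 1 or 2 or VC replicate 1 or 3 for Kif4 (0.0553 to 0.113), and Bub1KO replicate 1 or 2 or VC replicate 1 for Kif2c (0.0666 to 0.119). Kif15, Kif23, Kif22, Kif14, Kif20b, Kif2a, Kif24 and Kif19a did not pass, with differences from -0.21 to 0.17. Kif23 passed with no filter (limma adjusted p = 0.0313). Without irradiated Bub1KO replicate 3, Kif15, Kif14, Kif20b and Kif2a passed as lower (limma adjusted p = 0.0103 to 0.0475).

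Outside mitosis, Kifc3 (chromosome 8, 95099828 to 95202812), a minus-end motor of cell junctions, was the kinesin furthest below irradiated VC in irradiated Bub1KO. It had 937, 956 and 951 in irradiated Bub1KO, against 1571, 2004 and 1366 in irradiated VC, a log2 difference of -0.78 (SE 0.106, limma adjusted p = 0.000176). Untreated Bub1KO had 582, 1412 and 1376, against 1291, 1024 and 1018 in untreated VC, so the low value among the untreated libraries was that of Bub1KO replicate 1. The irradiated VC libraries spread over an SD of 326 and the irradiated Bub1KO ones over 9.66, and the call was lost with DESeq2 or a spread from all 12 libraries (adjusted p = 0.055 to 0.0596). Its longest transcript has a GC content of 59.8%. Against untreated cells, Kifc3 differed after 8 Gy by -0.14 in Bub1KO (limma adjusted p = 0.685) and 0.56 in VC (limma adjusted p = 0.0833). Without untreated Bub1KO replicate 1, these differences were -0.56 (limma adjusted p = 0.00176) and 0.56 (limma adjusted p = 0.000518). Kif26b (chromosome 1, 178529125 to 178939200), a kinesin without motor activity that acts in Wnt5a signalling, had 139, 156 and 136 in irradiated Bub1KO, against 213, 205 and 176 in irradiated VC (log2 difference -0.46, limma adjusted p = 0.00993). In untreated cells it had 115, 127 and 139 in Bub1KO, against 164, 172 and 173 in VC, again without overlap. Its call after 8 Gy was lost without irradiated VC replicate 1 (limma adjusted p = 0.0521) and with no filter (limma adjusted p = 0.0634).

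Kif5b averaged 10266 ± 894 in irradiated Bub1KO and 12410.5 ± 1155 in irradiated VC (SD, n = 3 each), a log2 difference of -0.27 (limma adjusted p = 0.0155) that did not pass without irradiated Bub1KO replicate 2 or VC replicate 3 (limma adjusted p = 0.0794 and 0.0658), nor with no filter, all 12 libraries or edgeR (adjusted p = 0.0543 to 0.191). Kif1c averaged 3387 ± 20.1 in irradiated Bub1KO and 4049 ± 393 in irradiated VC (log2 difference -0.25, limma adjusted p = 0.0122), a call lost with edgeR, DESeq2, no filter or all 12 libraries (adjusted p = 0.125 to 0.2). The remaining transport and signalling kinesins did not pass. Kifc2 was at 0.75 (limma adjusted p = 0.0653), and passed without irradiated Bub1KO replicate 3 (limma adjusted p = 0.0348), with the replicate block (limma adjusted p = 0.0411) and with GC trends removed (0.98, limma adjusted p = 0.0149). Kif7 was at -0.25 (limma adjusted p = 0.121) and passed without irradiated VC replicate 3 (-0.39, limma adjusted p = 0.0137), and Kif1b was at -0.14 and passed without irradiated Bub1KO replicate 3 (limma adjusted p = 0.0392).

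**Figure D5:**
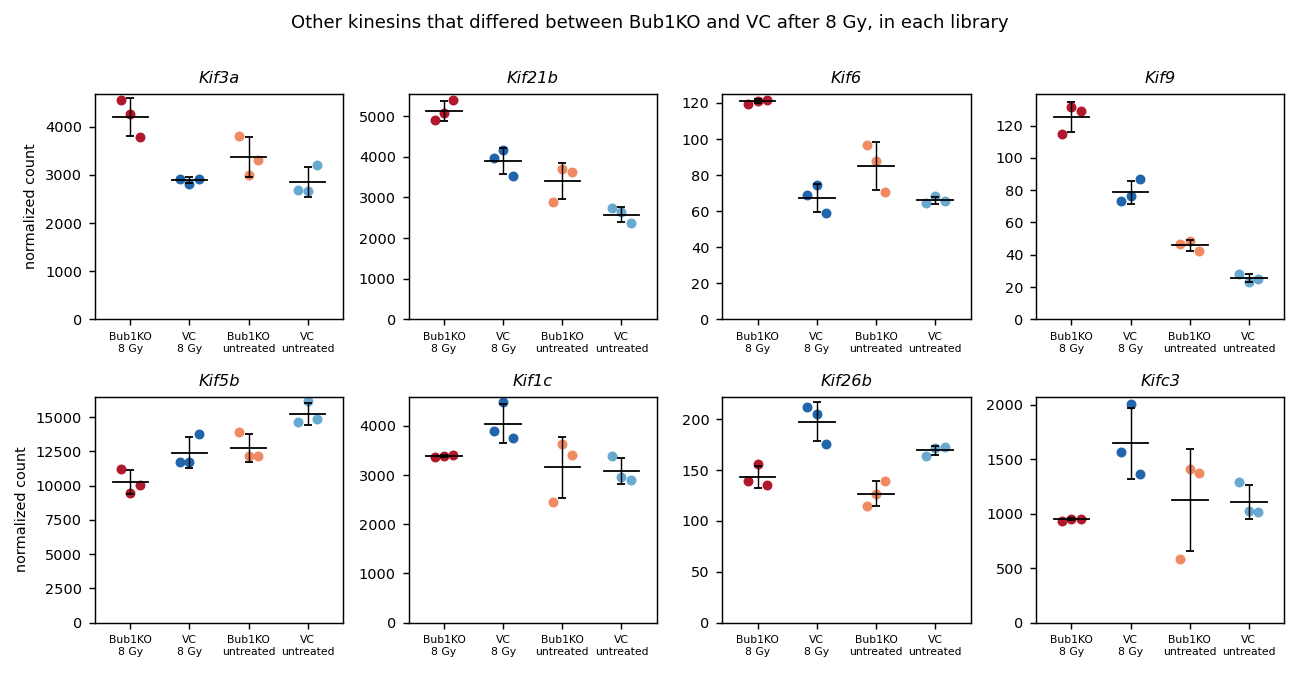
Normalized count (y axis, from 0) of the 8 kinesins outside the mitotic groups that differed between Bub1KO and VC after 8 Gy, in each of the 12 libraries, with 3 points per group in replicate order, a black line at the mean and bars of 1 SD. Irradiated Bub1KO lies above irradiated VC for Kif3a, Kif21b, Kif6 and Kif9 and below it for Kif5b, Kif1c, Kif26b and Kifc3.

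Among the partners in irradiated cells, 7 of 18 spindle and cytokinesis genes were lower in Bub1KO (38.9%, against 16.4% of all tested genes) and 0 higher, with a median of -0.19. Ect2, the exchange factor that Racgap1 brings to the midzone, averaged 681 ± 101 in irradiated Bub1KO and 990.0 ± 108 in irradiated VC (log2 difference -0.54, limma adjusted p = 0.00202). The passenger complex genes Aurkb (-0.21), Birc5 (-0.20) and Incenp (-0.19), the citron kinase gene Cit (-0.22), the spindle gene Nusap1 (-0.20) and the pole gene Numa1 (-0.27) were also lower. Of 13 cargo partners, the kinesin-1 light chain Klc1 (0.43, limma adjusted p = 8.34e-05) and the scaffold Mapk8ip3 (0.31) were higher in Bub1KO, and the mitochondrial adaptor Trak2 (-0.34), the scaffolds Spag9 (-0.30) and Mapk8ip1 (-0.21) were lower. Klc1 averaged 6099 ± 224 in irradiated Bub1KO and 4518 ± 92.5 in irradiated VC (SD, n = 3 each). Of 17 tubulin and dynein genes, Tuba1a was higher (0.35), and Tubb6 (-0.24), the dynein partner gene Dctn1 (-0.44) and the dynein subunit gene Dync1li1 (-0.39) were lower. The shares called, 38.5% of the cargo list and 23.5% of the tubulin and dynein list, compare with 30.7% of all tested genes.

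In untreated cells, the same comparison asks what disruption of Bub1 changes before irradiation. With limma 0 of 37 kinesins passed, against a background of 4.01% of all tested genes (2.31% higher, 1.71% lower), and 5 had an unadjusted p under 0.05, against 19.1% of all tested genes. DESeq2 called 3 kinesins and edgeR 4, where the share of all genes was 12.7% with DESeq2 and 11.8% with edgeR. Those with an unadjusted p under 0.05 were Kif9 (0.82, limma adjusted p = 0.0544), Kif21b (0.40, limma adjusted p = 0.0995), Kif5c (1.70, limma adjusted p = 0.104), Kif26b (-0.42, limma adjusted p = 0.129) and Kif5b (-0.26, limma adjusted p = 0.176). Over all 37 kinesins, the Bub1KO libraries did not overlap the VC libraries in 4 that were higher and 5 that were lower, and over all tested genes in 12.7% and 12.9%. Kif9 averaged 45.8 ± 3.31 in untreated Bub1KO and 25.5 ± 2.50 in untreated VC, and Kif21b 3404 ± 446 in untreated Bub1KO and 2576 ± 192 in untreated VC (SD, n = 3 each). The mitotic members were centred on -0.08, and Kif11 (-0.02) and Kif22 (0.01) were close to 0, with 95% intervals of -0.25 to 0.21 and -0.21 to 0.22.

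Without untreated Bub1KO replicate 1, 8 kinesins passed in untreated cells. Kif21b (0.51, limma adjusted p = 0.00186), Kifc1 (0.43, limma adjusted p = 0.00865), Kifc5b (0.51, limma adjusted p = 0.0182), Kif9 (0.80, limma adjusted p = 0.0362) and Kifc3 (0.34, limma adjusted p = 0.0478) were then higher in Bub1KO. Kif5b (-0.32, limma adjusted p = 0.011), Kif2a (-0.33, limma adjusted p = 0.013) and Kif23 (-0.24, limma adjusted p = 0.0349) were lower. Over all genes, 18.6% were called without that library. The authors' deposited table holds 4 kinesins at an adjusted p under 0.05 in this comparison, Kif23, Kif21b, Kif9 and Kif26b. The share of all genes called in it was again not counted. No partner gene of the 3 lists passed in untreated cells (limma, 0 of 48 at an adjusted p under 0.05 and 4 at an unadjusted p under 0.05, against 19.1% of all tested genes).

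Whether the response to 8 Gy differed between the genotypes was tested as an interaction, the Bub1KO difference minus the VC difference. With limma 0 of 37 kinesins passed, against a background of 0.55% of all tested genes (0.136% higher, 0.414% lower), 6 had an unadjusted p under 0.05, against 12.1% of all tested genes, DESeq2 called 1 and edgeR 0. Those 6 were Kifc5b (-0.84, limma adjusted p = 0.159), Kif6 (0.49, limma adjusted p = 0.344), Kif21a (0.25, limma adjusted p = 0.36), Kifc1 (-0.57, limma adjusted p = 0.394), Kif27 (0.73, limma adjusted p = 0.398) and Kif5c (-1.24, limma adjusted p = 0.398). The median interaction was -0.14 over the 16 mitotic kinesins, against 0.0008 over all tested genes. Some mitotic kinesins were close to 0: the interaction of Kif14 was 0.00 (95% interval -0.28 to 0.28), that of Kif23 0.03 (-0.16 to 0.23) and that of Kif22 -0.10 (-0.35 to 0.14). These intervals leave room for small differences and do not show that the response was equal. Without untreated Bub1KO replicate 1, 9.83% of all tested genes passed, and 6 kinesins: Kifc1 (-0.87, limma adjusted p = 0.000218), Kifc5b (-1.07, limma adjusted p = 0.000826), Kifc3 (-1.12, limma adjusted p = 0.000989), Kif18b (-0.47, limma adjusted p = 0.00718), Kif1c (-0.45, limma adjusted p = 0.016) and Kif3a (0.39, limma adjusted p = 0.0495). With GC trends removed in all 12 libraries, Kifc5b (-0.80, limma adjusted p = 0.016) and Kifc1 (-0.48, limma adjusted p = 0.0467) passed. The share of all tested genes called was 2.42% with GC trends removed, 1.83% with DESeq2 and 0.55% with edgeR. Of the 6 genes that passed without untreated Bub1KO replicate 1, 5 have a GC content of 54.5% to 59.8% in their longest transcript, and Kif3a has 47.6%. Kif26a (61.7%), Kif7 (59.6%) and Kif21b (56.7%) did not pass there. The part of GC content in these calls was not tested.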

How the data were processed

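RNA-seq of 12 B16F10 libraries, 3 in each of 4 groups, was grouped by the genotype and treatment labels. Libraries were made with a stranded total RNA kit after ribosomal RNA removal, per the labels' protocols. Trim Galore, cutadapt, STAR, SAMtools and HTSeq with GRCm38.p6 (mm10) are named in the submitters' processing notes, and no source used here gives versions or the strand setting of counting. The authors deposited 2 tables of 55421 genes with a signal per library, the read count divided by 1 size factor, and their own log2 fold changes of VC over Bub1KO with a test score and p-values, per the file headers. Both tables share 1 normalization. Whole reads were recovered from the value steps (tolerance 0.01). For irradiated Bub1KO replicate 2, whose size factor is close to 1, a check of units could not judge the column. Its values were whole multiples of a common step within the tolerance, as in the other libraries. DESeq2 and edgeR served as alternatives only, since limma on the normalized values was planned as the main test.

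Limma-trend (limma 3.58.1, R 4.3.3) was fitted to log2(value + 1) for 14721 genes at 10 or more in at least 3 libraries, with Benjamini-Hochberg adjustment over all of them and a threshold of 0.05. Fold changes on this scale understate those of low genes. Genotype comparisons used their own 6 libraries, and the 8 Gy and interaction terms all 12. Alternatives were edgeR 4.0.16, DESeq2 1.42.0, TMM factors, pseudocounts of 0.5 and 5, no filter, other libraries in the fit, GC trends removed, a replicate block and leaving out each library. The GC trend was centred after the data were seen. The fit was tested on simulated data. Positions and transcripts are from GENCODE M21 (GRCm38). Named genes follow a rule: every matching gene is accounted for, with all library values for members called in a genotype comparison and the 8 most abundant, plus called partners and the 3 smallest p-values per partner list in VC. Kif19a, Kif22 and Kif14 were described further after their values were seen. The members, role groups and lists were chosen with earlier results of these data known.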

Additional observations from a re-analysis of the deposited data

How the results depend on the processing

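Kinesins called in Bub1KO against VC after 8 Gy numbered 16, and 9 with no filter on low values, 8 with all 12 libraries in the fit, 9 with edgeR and 9 with DESeq2. Leaving out single libraries gave 11 to 22. Over all genes, the share called was 30.7%, and 6.81% with no filter, 14.3% with all 12 libraries, 16.6% with edgeR and 17.3% with DESeq2. It was 20.7% to 32.2% with single libraries left out. In untreated cells the count of 0 became 1 with a pseudocount of 5, 2 with GC trends removed, 4 with all 12 libraries in the fit, 4 with edgeR and 3 with DESeq2, and 0 to 8 when single libraries were left out. The share of all genes, 4.01%, became 4.15%, 10.8%, 12%, 11.8% and 12.7% in the same order, and 1.17% to 18.6% without single libraries. For the interaction the count of 0 became 2 with GC trends removed and 1 with DESeq2, and 0 to 6 when single libraries were left out. Its share of all genes, 0.55%, became 2.42% and 1.83%, and 0.224% to 9.83% without single libraries. The 8 Gy counts stayed within 1.5 times of 28 in Bub1KO (25 to 30 with single libraries left out) and 26 in VC (20 to 30). With single libraries left out, 41.7% to 51.4% of all genes were called in Bub1KO and 45.7% to 61.3% in VC. The direction of Kifc3 in untreated cells ran from -0.30 to 0.34 when single libraries were left out, with 0.34 without untreated Bub1KO replicate 1, against -0.08 with it, and that of Kif7 after 8 Gy in Bub1KO turned to -0.25 with GC trends removed, against 0.08. The cause was not tested. With the replicate block, 17 kinesins were called after 8 Gy, 0 in untreated cells, 28 for 8 Gy in Bub1KO, 25 for 8 Gy in VC and 0 for the interaction. The share of all genes with the block was 28.3%, 2.12%, 47.3%, 51.5% and 0.319% in the same order. The replicate numbers gave no sign of pairing: deviations of same-numbered samples correlated at -0.193 to 0.0549, and those of different-numbered samples at -0.148 to 0.152. Deviations from a mean of 3 libraries cannot show that the samples were unpaired. Depth limits the low members most, since Kif5a, Kif5c, Kif19a, Kif27 and Kifc2 had at most 37 reads in any library.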
